A study of Drosophila melanogaster with 15 samples.

Results

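The genes wor, brat and sna are 3 Drosophila melanogaster genes with roles in neuroblasts, the stem cells of the fly nervous system. They were taken by symbol from the rows annotated to 1 gene, each had 1 row on the array, and they are 3 of 9894 named genes measured. Transcript levels were measured on 15 arrays of 2 colours in 5 tissues dissected from larvae of the wild-type strain Canton S some 18 hours ahead of pupariation. There were 3 independent samples each of central nervous system, midgut, salivary gland, imaginal disc of the wing, and epidermis with the muscle attached to it (called epidermis here). Every array held 1 tissue in Cy5 and RNA of identically staged whole animals in Cy3, all of it amplified by in vitro transcription and with no dye swap. Each value is the log2 of tissue signal over whole-animal signal after the median of the array was set to 0, so a value of 1 is a doubling over the whole animal. The ratios do not give the absolute level of a transcript, so the ratio of 1 gene cannot be read as more or less RNA than another gene.

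Neuroblasts divide asymmetrically: each division renews the stem cell and gives a smaller daughter that goes on to make neurons and glia. The zinc-finger transcription factors Worniu (wor) and Snail (sna), together with their relative Escargot (esg), act in embryonic neuroblasts, where they promote asymmetric division. Worniu is also needed in larval neuroblasts, and Snail is best known as the repressor that defines the mesoderm of the embryo. Brat is an RNA-binding repressor of translation of the TRIM-NHL family, which the scaffold protein Miranda carries into the smaller daughter. Brain tumours of overgrown neuroblasts form in brat mutant larvae, which gave the gene its name. The larval central nervous system at this stage holds neuroblasts among many neurons and glia. In dissected tissue, a larger number of cells of a type and more RNA per cell cannot be told apart.

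Arrays measured between 7747 and 13505 rows, and in each tissue replicate 3 measured the fewest. Precision is limited by the number of arrays, and p-values measure only the spread between these samples. brat had a value on all 15 arrays, whereas wor and sna had values on 13, both being empty on epidermis replicate 3 and salivary gland replicate 3. Of marker genes in their own tissue, 9 of 10 muscle genes, 5 of 6 salivary gland genes, 10 of 11 midgut genes and 5 of 7 wing disc genes passed the test as higher than in the other 4 tissues, where 8.11%, 7.72%, 14.2% and 9.48% of features were called higher in epidermis, salivary gland, midgut and wing disc. In the central nervous system 4 of 11 neuron genes and 2 of 6 glia genes were higher and 0 were lower, where 12% of all features were called higher. The neuron gene elav was among them, at log2 2.86 above the other 4 tissues (SE 0.272, adjusted p = 4.94e-06). Of the markers of other tissues, 7 of 10 muscle genes, 4 of 6 salivary gland genes and 4 of 11 midgut genes were lower there and 0 were higher, where 10.2% of all features were called lower. Of 7 wing disc genes 1, zfh2, was higher in the nervous system (2.16, SE 0.239, adjusted p = 2.44e-05) and 0 were lower. In the salivary gland samples all 4 of 4 tested fat body markers were higher than in the other 4 tissues, with a median difference of 2.64.

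All 3 genes were highest in the central nervous system, in ratio to whole animal and on every array of that tissue. Against the mean of the other 4 tissues, wor was higher there by log2 2.40 (SE 0.328, 5.28-fold, adjusted p = 0.000177), brat by 2.38 (SE 0.264, 5.19-fold, adjusted p = 2.19e-05) and sna by 1.92 (SE 0.276, 3.79-fold, adjusted p = 0.000251). Throughout, adjusted p-values for tissues come from limma fitted over all features, after Benjamini-Hochberg adjustment, with a threshold of 0.05. In that comparison 12% of 8432 features were called higher, so a call alone is common, and by size of the difference wor ranked 34, brat 37 and sna 69 among those features. A test of any difference among the 5 tissues was passed by all 3 genes, with adjusted p = 0.000366 for wor, 1.01e-05 for brat and 0.000718 for sna, and by 44.5% of features.

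For wor, the neuroblast transcription factor gene, the central nervous system arrays read log2 1.70, 2.41 and 3.65 in replicates 1 to 3. The 10 measured arrays of the other tissues lay between -0.83 and 1.13, so the groups did not overlap. How many of all features separate in this way was not counted, here or for the other genes below. The mean in the central nervous system was 2.59 (SD 0.986, n = 3), a ratio of 6.01 to whole animal, which passed the test against whole animal (SE 0.286, adjusted p = 7.51e-06; 19.8% of features were called higher there). The spread of wor between the 3 nervous system arrays was wide: replicate 3 stood above the others, and without replicate 3 the difference from the other 4 tissues was 1.87. That array measured 9260 rows, against 12205 and 10986 on replicates 1 and 2, and the part of this in the value was not tested.

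Outside the nervous system the tissue means of wor lay between -0.56 and 0.59. Epidermis arrays read 0.70 and 0.49, and midgut arrays 0.20, 0.29 and 1.13, with midgut replicate 3 apart from the other two. Wing disc arrays read 0.21, 0.40 and -0.06, which lay on both sides of 0. Salivary gland arrays read -0.83 and -0.30, the only tissue in which all measured wor values were below the whole animal. None of these 4 tissue means passed the test against whole animal. The gland was the only tissue called lower for wor, at -1.54 against the other 4 tissues (SE 0.382, adjusted p = 0.0122, n = 2 arrays; 10.3% of features were called lower there). That call was lost without salivary gland replicate 1 (-1.27, adjusted p = 0.166). On the gland arrays the mean log2 ratio of the 4 fat body markers was -1.52 to -0.30, against -4.16 to -2.30 on all other arrays, and the part of fat body RNA in the gland values of wor and brat was not tested. In order of the mean ratio wor ran central nervous system, epidermis, midgut, wing disc, salivary gland. Among the 10 pairs of tissues, only the 4 that include the central nervous system passed, at log2 -1.99 for epidermis minus central nervous system to -3.15 for salivary gland minus central nervous system. Of all features, 7.02% were called lower than the nervous system in the pair with epidermis, 14.3% in that with midgut, 11.5% in that with salivary gland and 3.24% in that with wing disc. The pair with epidermis, measured on 2 arrays for wor, did not pass without epidermis replicate 2 (-1.89, adjusted p = 0.0645). Neighbours in that order below the nervous system did not pass the test against each other. Under other settings 3 to 6 pairs passed for wor. Epidermis against salivary gland was gained with arrays scaled to a common spread (1.26, adjusted p = 0.0206) and without replicate 3 of every tissue (1.16, adjusted p = 0.0369), and salivary gland against midgut with a common spread (-1.13, adjusted p = 0.0171) and without central nervous system replicate 3 (-1.10, adjusted p = 0.0411).

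For sna, which encodes the Snail repressor, the central nervous system arrays read log2 1.69, 2.51 and 2.98. The 10 measured arrays of the other tissues ran from -0.09 to 1.22, again without overlap. The mean was 2.39 (SD 0.651, n = 3), a ratio of 5.25 to whole animal (SE 0.24, adjusted p = 3.07e-06). Midgut arrays read 0.21, 0.60 and 1.22, and their mean of 0.68 passed the test against whole animal narrowly (SE 0.24, adjusted p = 0.0484; 13.7% of features were called higher there). That call was lost without midgut replicate 3 (0.40, adjusted p = 0.36) and on leaving out any of 8 other single arrays. Epidermis arrays read 0.75 and 0.66, close together and all above 0. Wing disc arrays read 0.37, 0.67 and -0.02, and salivary gland arrays -0.09 and 0.40. Against the other 4 tissues, sna in the gland lay at -0.87 (SE 0.321, adjusted p = 0.0764) and in the wing disc at -0.64 (SE 0.276, adjusted p = 0.124), neither past the test. The order of means was central nervous system, epidermis, midgut, wing disc, salivary gland, as for wor. Of the 10 pairs the 4 with the central nervous system passed, at -1.69 for epidermis minus central nervous system to -2.24 for salivary gland minus central nervous system, and the other tissues did not pass against each other. As for wor, the pair with epidermis did not pass without epidermis replicate 2 (-1.65, adjusted p = 0.0552).

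For brat, the translational repressor gene, the central nervous system arrays read log2 2.05, 2.79 and 2.41, a mean of 2.42 (SD 0.367, n = 3) and a ratio of 5.34 to whole animal (SE 0.236, adjusted p = 8.94e-07). The 12 arrays of the other tissues lay between -0.92 and 1.32, and the wing disc filled the top of that range. Wing disc arrays read 1.11, 0.76 and 1.32, all above every array of epidermis, salivary gland and midgut. The wing disc mean of 1.06 (SD 0.282) was a ratio of 2.09 to whole animal, and it passed the test (SE 0.236, adjusted p = 0.00207; 18.4% of features were called higher there). Epidermis arrays read -0.81, 0.08 and 0.15, salivary gland arrays -0.18, -0.13 and -0.92, and midgut arrays -0.38, 0.28 and -0.79. These 3 tissues overlapped one another and did not pass against whole animal.

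**Figure D1:**
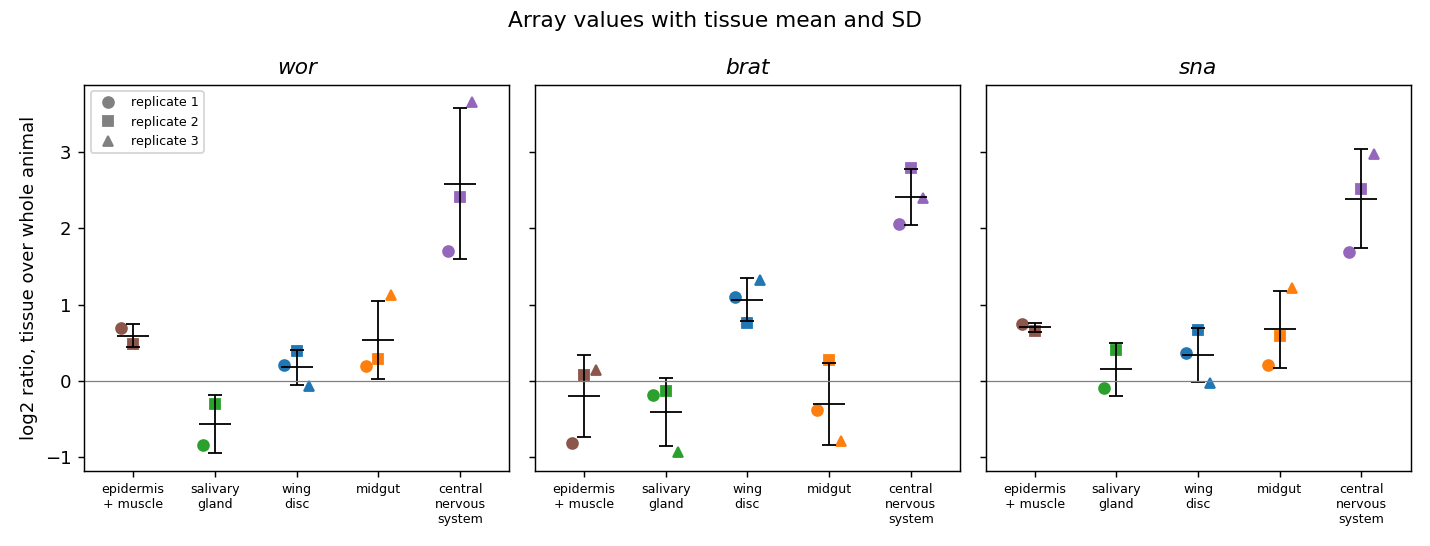
Log2 ratio of tissue over whole animal (vertical axis) for wor, brat and sna in 5 tissues (horizontal axis), with 1 symbol per array by replicate number, a horizontal bar for the mean and whiskers for the SD. The central nervous system arrays are highest for each gene (lowest values 1.70, 2.05 and 1.69 for wor, brat and sna), and for brat the wing disc (0.76 to 1.32) lies between the nervous system and the other 3 tissues.

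For brat the wing disc passed the test in all 4 of its pairs, which it did for wor and sna only against the nervous system; the difference between the genes in the wing disc was not tested. The value for epidermis minus wing disc was -1.26 (SE 0.333, adjusted p = 0.0206; 4.17% of features called lower) and that for salivary gland minus wing disc -1.47 (SE 0.333, adjusted p = 0.00517; 10% called lower). brat was higher in wing disc than in midgut by 1.36 (SE 0.333, adjusted p = 0.00609; 12.1% of features called higher). It was lower in wing disc than in the central nervous system, at -1.35 (SE 0.333, adjusted p = 0.0228), a call lost without wing disc replicate 1 or 2 or central nervous system replicate 2 or 3 (adjusted p = 0.0624 to 0.126). The call between epidermis and wing disc was lost without epidermis replicate 1 or wing disc replicate 1 or 3 (adjusted p = 0.0633 to 0.0894). Together 7 of 10 pairs passed for brat, and the 3 pairs among epidermis, salivary gland and midgut did not. With replicate 3 of every tissue left out, 3 pairs passed, namely the central nervous system over epidermis, salivary gland and midgut, and the 4 pairs with the wing disc had adjusted p between 0.0557 and 0.082. Against the other 4 tissues together, the central nervous system among them, the wing disc stood at 0.68 (SE 0.264, adjusted p = 0.0812), short of the threshold. brat was called lower in salivary gland (-1.16, SE 0.264, adjusted p = 0.0059), midgut (-1.02, SE 0.264, adjusted p = 0.00777) and epidermis (-0.89, SE 0.264, adjusted p = 0.0376), where 10.3%, 15.5% and 3.63% of features were called lower. The epidermis call was lost on leaving out any 1 of 10 of the 15 arrays, the gland call without salivary gland replicate 3 (-0.90, adjusted p = 0.056) and the midgut call without midgut replicate 3 (-0.77, adjusted p = 0.0797).

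**Figure D2:**
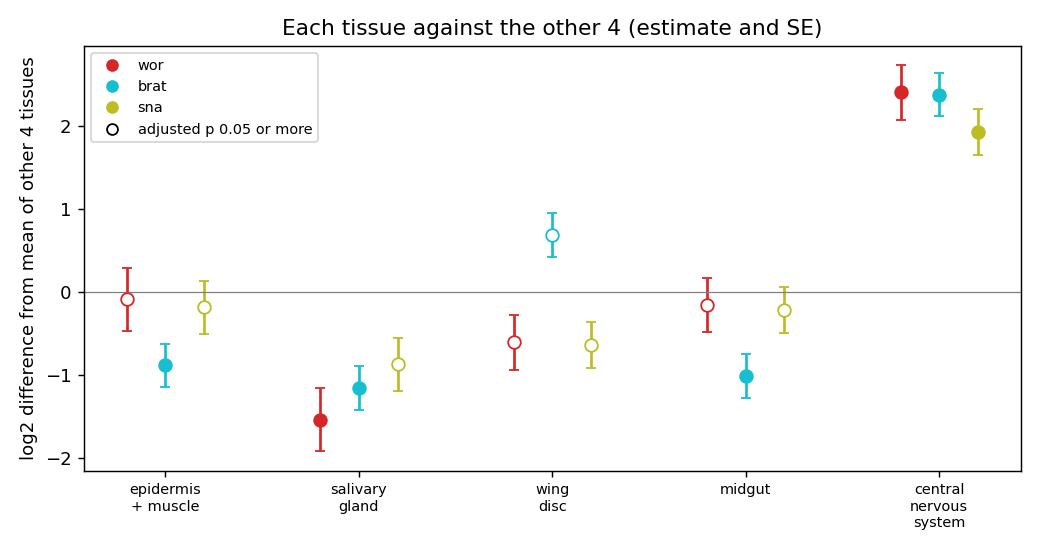
Log2 difference of each tissue from the mean of the other 4 tissues (vertical axis) for wor, brat and sna, with bars for the SE of the limma fit; open symbols did not pass an adjusted p of 0.05. The 3 genes lie between 1.92 and 2.40 in the central nervous system, and in the wing disc brat lies at 0.68 while wor and sna lie at -0.61 and -0.64.

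Dividing-cell markers, like brat, were highest in the wing disc and the central nervous system. The markers were higher in the wing disc, whereas brat was higher in the nervous system (mean 2.42 against 1.06). The mean log2 ratio of 9 DNA replication and mitosis genes measured on all arrays was 1.46 to 1.55 on wing disc arrays and 1.11 to 1.21 on central nervous system arrays, and -1.14 to 0.30 on the arrays of the other 3 tissues. In each of the wing disc and the central nervous system 8 of 10 tested genes of that list were higher than in the other 4 tissues and 0 were lower, where 9.48% and 12% of all features were called higher. The same wing disc arrays gave means of 0.18 (SD 0.23, n = 3) for wor and 0.34 (SD 0.35, n = 3) for sna. The part of these cells in the brat result was not tested. The mean of 6 neuron markers measured on all arrays was 0.42 to 0.65 in the central nervous system and -0.36 to 0.44 elsewhere, so that wing disc replicate 3 lay within the nervous system range.

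The size of the nervous system difference was compared between genes within arrays. The ratio of wor minus that of brat averaged 0.17 (SD 0.93, n = 3) on central nervous system arrays and 0.09 (SD 1.04, n = 10) on the others, a difference of 0.08 (two-sided exact permutation p = 0.902, 0.902 adjusted over 3 comparisons). For wor minus sna the averages were 0.20 (SD 0.42) and -0.26 (SD 0.263), a difference of 0.45 (exact permutation p = 0.0559, adjusted 0.168). For sna minus brat they were -0.02 (SD 0.516) and 0.35 (SD 0.981), a difference of -0.37 (exact permutation p = 0.559, adjusted 0.839). The other arrays came from tissues whose averages differed. For wor minus brat these were 0.96 in epidermis, 0.83 in midgut, -0.41 in salivary gland and -0.88 in wing disc. For sna minus brat they were 1.07, 0.97, 0.31 and -0.72 in that order, and for wor minus sna -0.72 to -0.11. The permutation treated these arrays as interchangeable, so its p-values mix tissue differences with the spread between samples. None of the 3 comparisons passed the threshold, which does not show that the nervous system difference is of one size in the 3 genes.

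Array by array, wor and sna followed each other closely, and brat did not follow them outside the nervous system. Over the 13 arrays with all 3 genes, Pearson's r between wor and sna was 0.977, and over the 10 of these arrays outside the nervous system it was 0.888. The deviations of wor and sna from their tissue means had r = 0.926. Both genes were highest on the same array in every tissue. That array was replicate 1 in epidermis, 2 in salivary gland and wing disc, and 3 in midgut and central nervous system. In epidermis and salivary gland only 2 arrays had a value. Between wor and brat, r was 0.672 over the 13 arrays, -0.294 without the nervous system and -0.177 for the deviations. Between brat and sna it was 0.679, -0.448 and -0.119. The points share arrays and the reference, so these values are descriptions. The rows of wor and sna were also consecutive in the table. Consecutive rows of different genes had a median r of 0.361 for deviations from tissue means over 3935 pairs, against 0.199 for rows 10 apart over 3655 pairs, and 1.45% of consecutive pairs reached 0.926. Whether row position takes part in the likeness of wor and sna was not tested.

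**Figure D3:**
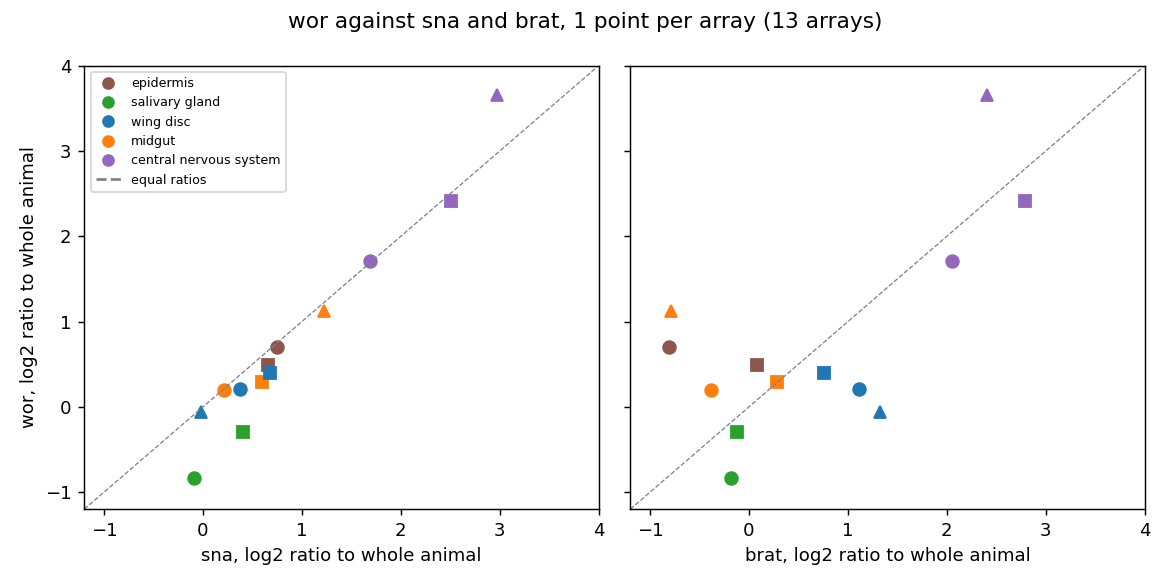
Log2 ratio to whole animal of wor (vertical axes) against sna (left) and brat (right), with 1 point per array for the 13 arrays that measured all 3 genes, coloured by tissue, shaped by replicate number (circle 1, square 2, triangle 3), and a dashed line at equal ratios. wor and sna lie near the line (r = 0.977), whereas the wing disc points lie below the line for brat and the midgut and epidermis points on or above it.

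In the current gene annotation wor and sna lie near each other on chromosome arm 2L with esg, the third gene of the trio. Between wor and sna stands 1 protein-coding gene, and between esg and wor stand 2. In each interval 1 of these was measured. Only the one between esg and wor is named below by its position, so whether the genes around wor and sna share their pattern is not shown. esg was not called higher in the nervous system. Its central nervous system arrays read -0.31, -0.16 and -0.16, all below the whole animal (mean -0.21, SD 0.0876, n = 3), and the difference from the other 4 tissues was 0.34 (SE 0.363, adjusted p = 0.558). Its highest mean was in midgut, where esg is known to mark progenitor cells, at 0.12 (SD 0.419, n = 3), and its lowest in salivary gland, at -1.46 (SD 1.12, n = 3). The gland arrays of esg were wide apart, at -2.04, -0.17 and -2.16. Kah, a further zinc-finger gene related to the Snail family, lay at -0.08 from the other 4 tissues in the nervous system (SE 0.263, adjusted p = 0.858). Thus 0 of 2 tested relatives passed, with a median difference of 0.13 beside -0.07 over all features. CG15258, a gene with no name between esg and wor that was chosen after its values were seen, lay at -0.62 in the nervous system (SE 0.234, adjusted p = 0.072).

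Among neuroblast transcription factor genes, 1 of 8 tested was higher in the central nervous system than in the other 4 tissues and 0 were lower, close to the 12% of all features called higher, with a median difference of 0.12 beside -0.07 over all features. The other 12 of 20 measured genes had too few values in at least 1 tissue and were not tested. The one higher was ey, the fly Pax6 gene of eye and brain development. Its nervous system arrays read 1.21 and 2.24, above all arrays of the other tissues (-1.39 to 0.19), and the difference was 2.23 (SE 0.297, adjusted p = 0.000114, n = 2 arrays in the nervous system). SoxN, a Sox gene of the neuroectoderm, lay at 0.44 (SE 0.285, adjusted p = 0.32), and grh, a late neuroblast factor gene also active in epidermis, at -0.56 (SE 0.343, adjusted p = 0.273). Of the temporal factor genes, which neuroblasts express in turn, Kr lay at 0.60 (adjusted p = 0.326), cas at -0.02 (adjusted p = 0.965) and pdm2 at -0.26 (adjusted p = 0.582).

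Of 20 tested asymmetric division genes, 3 were higher in the nervous system (12% of all features were), 1 was lower (10.2% of all features were) and 16 did not pass, with a median of 0.03 beside -0.07 over all features. The largest difference was that of mira, whose product Miranda carries Brat. The nervous system arrays of mira read 2.22 and 2.59, above the 8 measured arrays of the other tissues (-0.11 to 1.42), and the difference was 1.90 (SE 0.324, adjusted p = 0.00178, n = 2 arrays in each tissue). Its nervous system mean was 2.41 (SD 0.262), and its wing disc mean 0.12 (SD 0.32), beside 0.18 for wor and 1.06 for brat. stau, which encodes an RNA-binding cargo of Miranda, was higher by 1.62 (SE 0.227, adjusted p = 0.000134). pon, which encodes a partner of Numb, was higher by 0.74 (SE 0.214, adjusted p = 0.0198) and was also higher in wing disc, by 0.88 (SE 0.214, adjusted p = 0.00766). The lower gene was scrib, a scaffold gene of cell polarity in epithelia and neuroblasts, at -0.67 (SE 0.167, adjusted p = 0.00886). The adaptor gene insc, which ties spindle orientation to polarity, lay at 0.23 (SE 0.21, adjusted p = 0.487), and numb, a Notch inhibitor gene, at 0.01 (SE 0.205, adjusted p = 0.976).

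Of 9 tested Brat partners and targets, 1 was higher in the nervous system and 0 were lower, a share near the 12% of all features called higher, with a median of 0.31 beside -0.07 over all features. It was me31B, which encodes an RNA helicase of translational repression, at 1.15 (SE 0.237, adjusted p = 0.00286). pum, which encodes the RNA-binding partner Pumilio, lay at 0.32 (SE 0.222, adjusted p = 0.338), and mei-P26, a TRIM-NHL relative of brat, at 0.48 (SE 0.209, adjusted p = 0.115). Of 12 proneural and Notch genes, 2 were higher in the nervous system and 0 were lower, beside the same 12%, with a median of 0.20. These were E(spl)m7-HLH, a target of Notch signalling, at 1.22 (SE 0.228, adjusted p = 0.00176) and gro, which encodes a corepressor, at 0.88 (SE 0.185, adjusted p = 0.00286). Both were also higher in the wing disc, by 1.54 (SE 0.228, adjusted p = 0.000334) and 0.67 (SE 0.185, adjusted p = 0.0171).

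**Figure D4:**
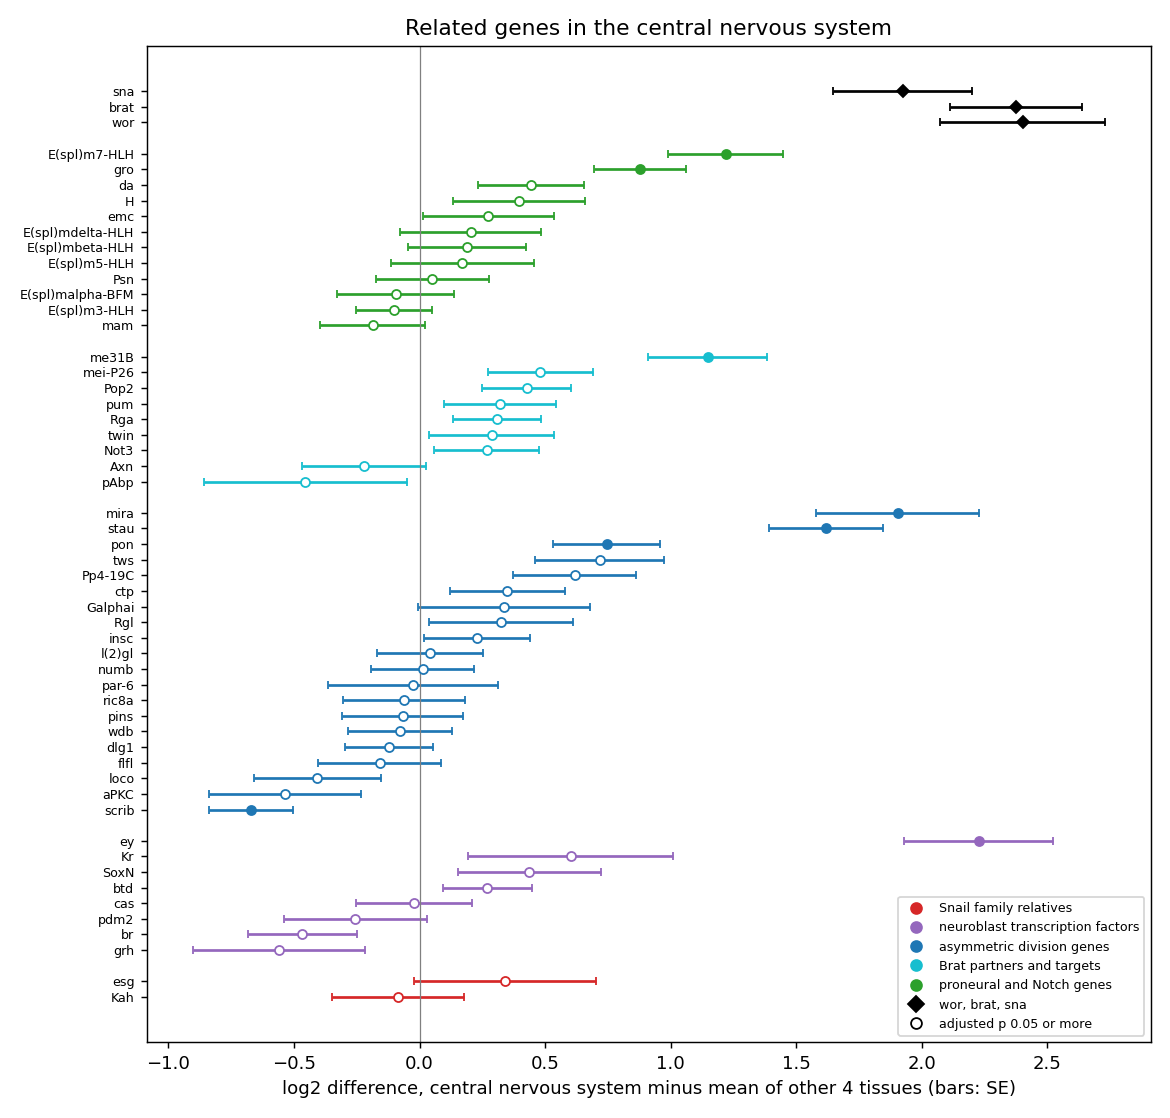
Log2 difference of the central nervous system from the mean of the other 4 tissues (horizontal axis, bars for the SE) for the tested members of 5 lists of related genes and for wor, brat and sna; open symbols did not pass an adjusted p of 0.05. wor, brat and sna lie at 1.92 to 2.40, and among the listed genes ey (2.23), mira (1.90) and stau (1.62) come nearest to them.

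The genes whose array values were most like each of the 3 were found by Pearson's r over at least 12 shared arrays. For wor, over 13 arrays and 5640 genes, they were sna (0.977), the G protein gene Galphao (0.953), the tetraspanin gene TM4SF (0.924), the flotillin gene Flo1 (0.917) and the unnamed CG3556 (0.917). For sna they were wor (0.977), CG6495 (0.958), Ilp2 (0.937), Cadps (0.93) and CG4133 (0.922), also over 13 arrays. Ilp2 encodes an insulin-like peptide of brain neurosecretory cells, and Cadps a protein of dense-core vesicle release. Ilp2 was at 2.88 (SD 0.297, n = 3) in the nervous system and between 0.09 and 0.36 in the other tissues.

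For brat, over 6660 genes, the most alike were Ythdf (0.961, 15 arrays), CG4887 (0.96, 15 arrays), Ddx1 (0.956, 13 arrays), CG14562 (0.952, 14 arrays) and Ama (0.941, 15 arrays). Ythdf encodes a reader of methylated RNA, Ddx1 an RNA helicase and Ama an adhesion protein of the immunoglobulin family. In each of these 5 the wing disc mean came second after the nervous system, as for brat, with 1.09 (SD 0.21, n = 3) for Ythdf and 0.74 (SD 0.135, n = 3) for Ama. The 5 were chosen for their likeness to brat over these same arrays, so the choice itself favours a shared order of tissues. Among all genes compared with brat, sna ranked 670 and wor 701.

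**Figure D5:**
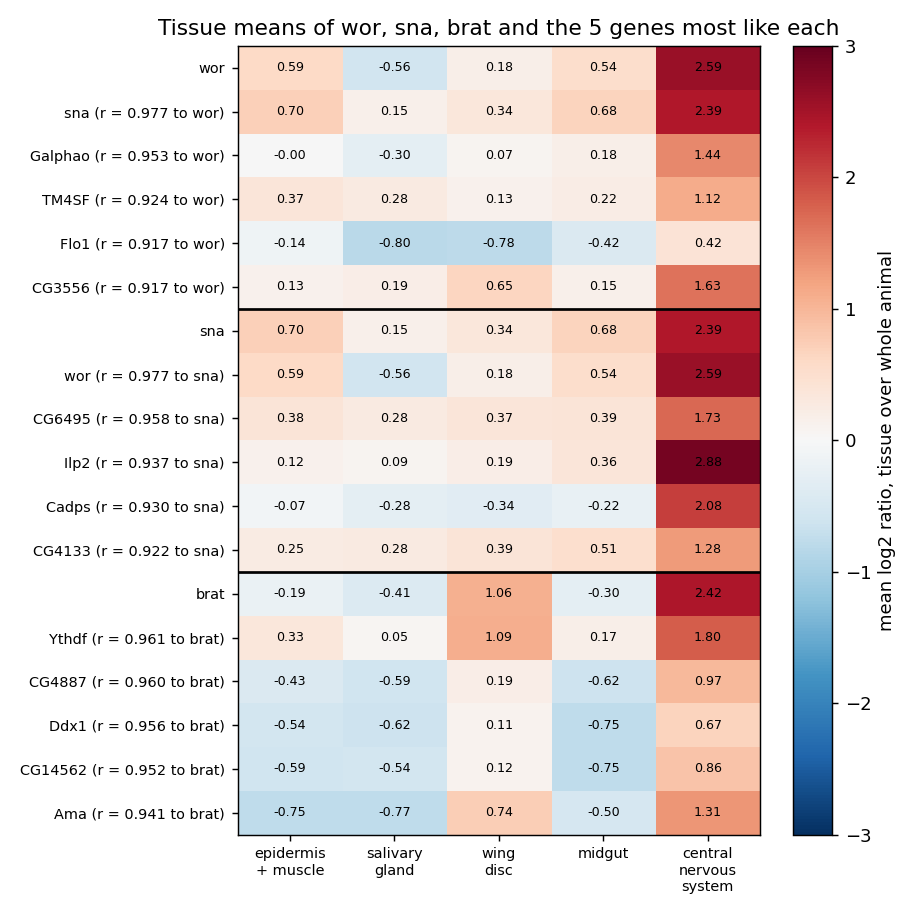
Mean log2 ratio of tissue over whole animal (colour and printed value) in 5 tissues (columns) for wor, sna and brat, each above the 5 genes with the highest Pearson's r to it over shared arrays. Every row is highest in the central nervous system, and the rows under brat have their next highest mean in the wing disc. The choice of genes by likeness over the same arrays favours such a shared order.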

How the data were processed

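For each of the 15 arrays the authors deposited 1 column of log2 ratios. The base follows from the values themselves: per array, 892 to 1126 values had a partner exactly 1 higher, against 26 to 39 a partner higher by the natural logarithm of 2. The direction, tissue over whole animal, follows the channel and dye that the labels give to each RNA. How arrays were scanned, background-corrected and normalized, why some cells are empty and which genome build was used is not stated in the labels, so no coordinates are given.

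Rows were named through the array's annotation and current RefSeq gene records (10817 of 14051 measured rows had 1 gene). Each array was centred on its median and rows of 1 gene were averaged. All features were fitted with limma 3.58.1 in R 4.3.3 with 1 mean per tissue over all arrays and empirical Bayes variances (prior degrees of freedom 5.96, prior SD 0.338). A feature was tested where at least 2 of 3 arrays had a value in each tissue needed. The fit gave an F test, every pair of tissues, each tissue against 0 (whole animal) and each against the average of the other 4; p-values were adjusted by Benjamini-Hochberg within each, with a threshold of 0.05. In tests against whole animal the spread of the reference is missing and any dye effect is included. Contrasts were tested on simulated data. Differences between genes were tested by exact permutation (python 3.11.15, scipy 1.17.1).

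The 3 genes, the lists and the tests were chosen with earlier results of these data known. The genes named were the 3, the measured Snail relatives, up to 5 list genes with the largest nervous system difference past the test, and the 5 genes most like each of the 3; list genes named without passing the test were chosen after their values were seen.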

Additional observations from a re-analysis of the deposited data

Results flagged for a closer look

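For 15 of 30 comparisons between pairs of tissues, the ratio of wor, brat or sna to whole animal differed by the limma test of the difference itself. In the pairs concerned, 3.24% to 14.3% of all features were called in the same direction. The comparisons share arrays, so the calls are not separate results. Each value is the log2 difference of the first tissue from the second. For wor, the values against the central nervous system were -1.99 for epidermis, -3.15 for salivary gland, -2.41 for wing disc and -2.05 for midgut. For sna they were -1.69, -2.24, -2.05 and -1.72 in the same order of tissues. For brat they were -2.61 for epidermis, -2.83 for salivary gland, -1.35 for wing disc and -2.71 for midgut. In brat the wing disc also differed from epidermis (-1.26 for epidermis minus wing disc), from salivary gland (-1.47 for gland minus wing disc) and from midgut (1.36 for wing disc minus midgut).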

How the results depend on the processing

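The nervous system calls against the other 4 tissues and the tests among 5 tissues were kept for wor, brat and sna under every alternative that gave a value: no centring, centring on the 4540 features on all arrays, quantile normalization, arrays scaled to a common spread, robust empirical Bayes variances, rows kept apart, values on 3 of 3 arrays (brat only, since wor and sna lack 2 arrays), a replicate block, each array left out, and, chosen after seeing the data, replicate 3 of every tissue left out. With arrays left out the nervous system difference was 1.87 to 2.84 for wor, 2.19 to 2.56 for brat and 1.63 to 2.28 for sna, and with the other alternatives 2.14 to 2.44, 2.18 to 2.43 and 1.67 to 1.96.

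Calls elsewhere depended on single arrays. Over all fits with arrays left out, wor in epidermis against the other 4 tissues ranged from -0.20 to 0.09 (0.0499 with a common spread, 0.0853 with the replicate block), in salivary gland from -1.81 to -1.27, and in midgut from -0.46 to 0.0082. brat ranged in epidermis from -1.15 to -0.58, in salivary gland from -1.30 to -0.89, in wing disc from 0.47 to 0.84 (0.74 and past the test when centred on features on all arrays) and in midgut from -1.30 to -0.76. sna ranged in salivary gland from -1.12 to -0.63 (-0.77 and past the test with a common spread) and in midgut from -0.49 to 0.012. The wing disc call of brat was gained without midgut replicate 2 (0.76) and the gland call of sna without central nervous system replicate 1 (-0.96). brat in epidermis against whole animal ranged from -0.37 to 0.12. sna in salivary gland against whole animal ranged from -0.093 to 0.40, and wor minus brat from -0.46 to 0.35.

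Without replicate 3 of every tissue, brat in neither salivary gland (-0.89) nor midgut (-0.76) passed. The count of pairs past the test over all settings ranged from 3 to 7 for brat and from 3 to 6 for wor, and with arrays left out that of sna tissues past the test against whole animal ranged from 1 to 2. For wor, 3 tissues passed against whole animal with a common spread, where 1 did otherwise. wor minus brat was -0.013 with a common spread.

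Of the listed genes higher in the nervous system, 0 neuroblast factors, 0 Brat partners and 1 proneural gene were left with values on 3 of 3 arrays. With arrays left out the counts ran from 1 to 4 higher neuroblast factors (2 without epidermis replicate 1 or 3, 4 without replicate 3 of every tissue) and 0 to 1 lower (1 without central nervous system replicate 1 or 3). They ran from 2 to 5 higher asymmetric division genes (5 without epidermis replicate 3), 0 to 2 lower (0 without central nervous system replicate 2, 2 without salivary gland replicate 2), and 1 to 2 Brat partners (2 without salivary gland replicate 3). The cause of these changes was not tested. Requiring values on 3 of 3 arrays left fewer genes to test. In a tissue that lost an array, 1 remaining value was enough, so genes with too few values in the main fit could enter. Where a fit left 1 array in a tissue, that array was assumed to vary like the others. Deviations of same-numbered arrays of different tissues correlated from -0.487 to 0.352 (median 0.034, 11 of 30 pairs over 0.1). For arrays of different number the range was -0.430 to 0.580 (median -0.030, 13 of 60 pairs over 0.1). Whether replicate numbers pair the samples was not tested. The replicate block ended no call of wor, brat or sna and added that of sna in epidermis against whole animal (0.83). That call was also gained with a common spread (0.77), with quantile normalization (0.73) and without replicate 3 of every tissue (0.70), so that 3 tissues passed for sna under the block, a common spread or quantile normalization. In the nervous system it called 1880 features against 1866.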
